A study of Bos taurus with 6 samples.

Results

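Partial methylation confined to bovine fibroblasts was found at 49563 CpGs, which were 5.22% of the 950004 autosomal CpGs that could be read in every library. These fibroblast-partial CpGs were chosen from the readout itself. A CpG on chromosomes 1 to 29 was eligible when it was covered by 10 to 500 reads in all 6 libraries. The methylated reads and the coverage of the 2 libraries of a cell type were summed, and a CpG was taken when the summed methylation was between 20% and 60% in fibroblasts and above 80% in both sperm and monocytes. They made up 14.0% of the 354675 eligible CpGs above 80% in sperm and monocytes, called reference CpGs here, so that most of these CpGs were not partially methylated in fibroblasts. The differences between cell types described first below are those that chose the CpGs and carry no test.

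The libraries were made by reduced representation bisulfite sequencing (RRBS), in which MspI cuts DNA at its recognition site regardless of methylation, short fragments are sequenced and bisulfite turns unmethylated cytosines into bases read as thymines. There were 2 libraries of sperm from Holstein bulls, 1 semen straw per bull, and 2 of blood monocytes from Holstein cows. The other 2 were of fibroblasts derived from the ear skin of adult Holstein heifers. Within a cell type each library came from a different animal. Fibroblasts alone had been grown in culture, and sperm alone came from males. Culture and cell type therefore cannot be told apart between fibroblasts and monocytes, nor sex and cell type between sperm and the others. The monocyte libraries were amplified with fewer PCR cycles than the others. The tables hold methylation only, so that the purity of each cell type was not checked on marker genes.

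Most CpGs of a somatic mammalian genome are methylated by maintenance methyltransferase activity after each replication. Partially methylated domains are long stretches, usually poor in CpGs and genes and replicated late, in which this methylation is incomplete; they are well known in cultured fibroblasts and in tumours, and isolated CpGs lose methylation there most readily. A domain of this kind would leave neighbouring fragments partially methylated over a long distance, whereas a regulatory element would affect a short one. The positions of the fibroblast-partial CpGs are described below with this distinction as the question.

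The coverage summed over CpGs ranged from 45884839 to 78890776 per library, and the median coverage of a CpG, before any limit, from 9 to 14 reads. At the fibroblast-partial CpGs sperm had a median coverage of 18 and 21 reads, monocytes 21 and 17 reads and fibroblasts 25 and 29 reads. A percentage at 1 CpG in 1 library is thus coarse, and the counting error of averages over many CpGs is small.

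Mean methylation over the 49563 CpGs was 43.6% in fibroblast library 1 and 44.8% in fibroblast library 2. Sperm reached 97.7% and 97.4%, and monocytes reached 92.6% and 92.3%. The fibroblast libraries were therefore low together, and sperm was almost fully methylated, with a median of 100% in both libraries. Both fibroblast libraries were below all 4 others at 49011 of the CpGs (98.9%, against 19.9% of all eligible CpGs), an ordering that the choice of the CpGs largely fixes. Within the limits the CpGs leaned to the upper end: 39.7% were between 50% and 60% in fibroblasts, 26.0% between 40% and 50%, 19.2% between 30% and 40% and 15.1% between 20% and 30%. The limits cut a continuous distribution. Just below the lower limit, 1234 reference CpGs lay between 18% and 20%, with a mean of 18.9%, and just above it 1457 CpGs lay between 20% and 22%, with a mean of 20.9%. At the upper limit, 4673 CpGs between 58% and 60% had a mean of 59.1%, and 4278 between 60% and 62%, left out, had a mean of 61.1%.

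**Figure D1:**
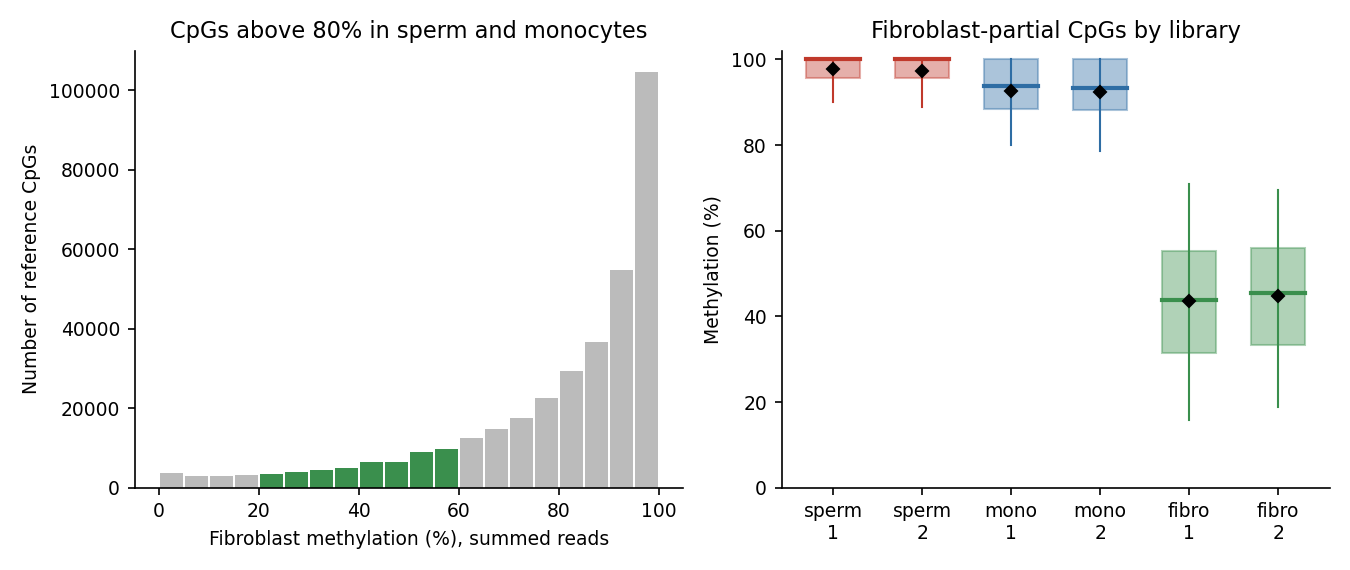
Left, number of reference CpGs in 5-point bins of fibroblast methylation from summed reads, with the fibroblast-partial bins in green. Right, methylation of the 49563 fibroblast-partial CpGs in each library (boxes, middle 50%; bar, median; lines, 5th to 95th percentile; diamonds, mean), where the fibroblast means are 43.6% and 44.8% and the other means are 92.3% or higher.

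Fibroblast methylation of the reference CpGs peaked near full methylation and had no separate group at the partial level, as the plot of reference CpGs by fibroblast methylation shows. Among the reference CpGs, 63.1% were above 80% in fibroblasts, 19.4% were above 60% and up to 80%, and 3.60% (12769 CpGs) were below 20%. Monocyte methylation was slightly lower where fibroblasts were partial than where they were above 80%. Averaged over both libraries it was 96.2% where fibroblasts were above 80%, 94.1% from 60% to 80%, 93.0% from 50% to 60% and 91.8% from 20% to 30%, and it was 92.2% where fibroblasts were below 20%, so that the order did not continue there. Sperm stayed between 97.4% and 97.9% over the same classes. The converse pattern, partial methylation in monocytes alone with sperm and fibroblasts above 80%, was met by 4961 of 240763 CpGs, or 2.06%.

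The single values of the fibroblast libraries were much less alike than their means. At 27514 CpGs (55.5%) both libraries were between 20% and 60%, while at the others the sum was in these limits with 1 or both libraries outside them. The absolute difference between the libraries had a median of 15.4 points, and the SD of the difference was 22.9 points, where counting of reads alone would give 13.8. Other eligible CpGs of the same fibroblast percentage showed a like excess, with an SD of 23.8 points where counting would give 13.1. The rule did not use the difference between the libraries, and it was tested at each CpG with Fisher's exact test on the reads, adjusted over all eligible CpGs by the Benjamini-Hochberg method. It was called at 1777 of the fibroblast-partial CpGs (3.59%), against 1.23% of all eligible CpGs and 5.71% of the other eligible CpGs with 20% to 60% in fibroblasts. Of the 1777 calls, 897 were higher in library 2 and 880 in library 1, so that neither animal was generally the lower. The test compares these 2 libraries and not conditions, and under a likelihood-ratio test it called 3022 fibroblast-partial CpGs.

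How far the pattern held beyond the libraries that chose it was read in replicates left out of the choice. When the rule was applied to the 3 libraries numbered 1 alone, it took 52936 CpGs, whose mean in fibroblast library 1 was 44.0%. Their mean in fibroblast library 2 was 53.7%, and 51.3% of them were again between 20% and 60%, 27.9% were above 60% and up to 80%, 13.0% were above 80% and 7.82% were below 20%. The remaining reference CpGs of that choice had a mean of 84.0% in fibroblast library 2, with 7.71% between 20% and 60%. When the libraries numbered 2 chose, the 48907 CpGs went from 44.0% to 50.7% in fibroblast library 1, with 53.9% still between 20% and 60%, against 8.45% of the remaining ones. The rule was met in both sets of libraries separately at 23127 CpGs. Values read in the other animal were thus higher by 9.78 and 6.63 points than in the library that chose, and were 30.2 and 32.9 points below those of the remaining CpGs.

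Along the chromosomes the fibroblast-partial CpGs came in small clusters separated by long gaps. The distance from one to the next had a median of 1172.5 bp, and 43.5% of the distances were 300 bp or less, the scale of an RRBS fragment, whereas 30.1% were over 10 kb. The reference CpGs from which they were taken had a median distance of 25 bp, with 78.0% up to 300 bp and 7.85% over 10 kb. For CpGs partial in monocytes alone the median was 6079.5 bp, with 43.1% up to 300 bp and 47.5% over 10 kb. Such distances lengthen as a set gets smaller, so that they do not compare the arrangement of sets of unlike size. The reference CpGs were themselves mostly within 300 bp of the next. When reference CpGs within 300 bp of each other were joined into loci, 27507 of 78213 loci (35.2%) held a fibroblast-partial CpG, and 16238 of these (59%) held a single one. Few loci met the rule at every reference CpG. Of the 19181 loci with at least 3 reference CpGs and at least 1 fibroblast-partial CpG, 695 (3.62%) consisted of fibroblast-partial CpGs only, and 13858 (72.2%) also held a CpG above 80% in fibroblasts.

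Clustering was strong within a fragment and weak beyond it. Of the reference CpGs up to 10 bp away from a fibroblast-partial CpG, 48.6% were also fibroblast-partial. This share was 40.6% at over 10 and up to 30 bp, 31% up to 100 bp and 25.9% up to 300 bp, where CpGs can share reads. It was 18.8% at 300 to 1000 bp and then declined slowly, to 17.0% at 1 to 3 kb, 16.0% at 10 to 30 kb and 15.3% at 30 to 100 kb. It was 14.1% at 100 to 300 kb, 13.5% from 0.3 to 1 Mb and 13.4% at 1 to 3 Mb, and the share over all reference CpGs was 14.0%. The shares by distance count pairs, so that stretches with many reference CpGs weigh more in them than in the share over all. CpGs partial in monocytes alone had a share of 58% up to 10 bp, 6.93% at 300 to 1000 bp and 2.32% at 30 to 100 kb, against 2.06% over all their reference CpGs. Both sets thus declined steeply within 1 kb, and the excess that remained from 1 to 100 kb was between 1.29 and 3.04 points in fibroblasts and between 0.263 and 2.04 points in monocytes. Relative to the share over all reference CpGs, it went from 1.22 to 1.09 times in fibroblasts and from 1.99 to 1.13 times in monocytes. Against this share the relative excess was the larger in monocytes. Against the shares at 1 to 3 Mb, 13.4% and 2.18%, the excess would be larger in fibroblasts and smaller in monocytes. The size of the excess and this order therefore depend on the share it is set against. Values of neighbouring distances are not independent, since the same CpGs enter many pairs.

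**Figure D2:**
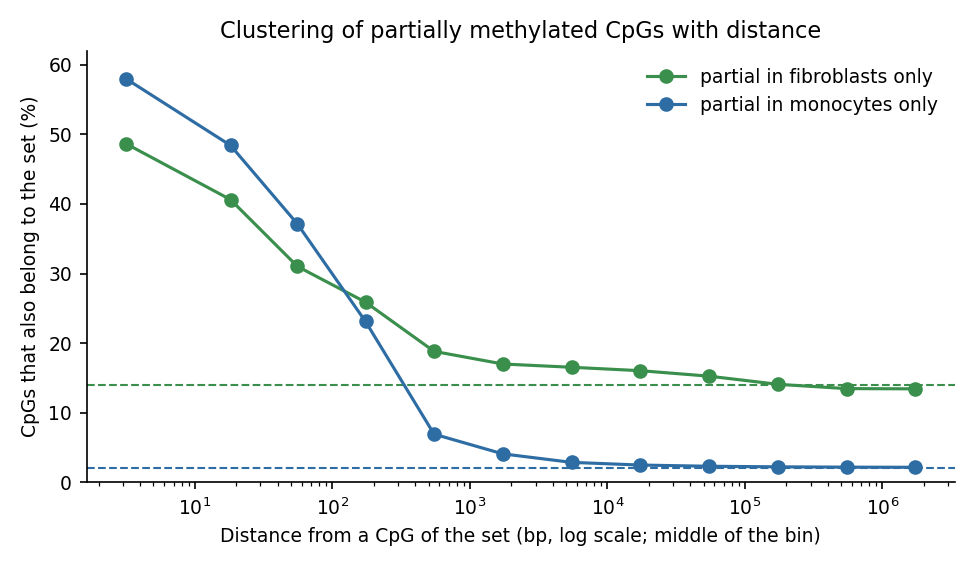
Percentage of reference CpGs that belong to the same set, by distance (bp, log scale) from a CpG of that set, for CpGs partial in fibroblasts alone (green) and in monocytes alone (blue), with dashed lines at the share over all reference CpGs (14.0% and 2.06%). The green line falls from 48.6% up to 10 bp to 18.8% at 300 to 1000 bp and meets its dashed line at 100 to 300 kb. The points count pairs of CpGs, whereas the dashed lines count CpGs.

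A run was defined as at least 3 reference CpGs in a row that were all fibroblast-partial. Eligible CpGs outside the reference set could lie between them. The 4272 runs held 16295 fibroblast-partial CpGs (32.9%), and 41.5% of the fibroblast-partial CpGs had no fibroblast-partial neighbour on either side. Runs were short, with a median span of 136 bp and a longest run of 13 CpGs. The span exceeded 1 kb in 1586 runs, 10 kb in 850 and 100 kb in 222, where few reference CpGs lay between the ends. The longest span, 4.04 Mb, held only 4 reference CpGs.

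The 3 runs with the most CpGs each lay within less than 1 kb. On chromosome 14 (chr14:4113116-4113469 in UMD3.1, the bovine genome build of these files), 13 CpGs in 354 bp had a mean of 50.0% and 33.4% in the fibroblast libraries, 98.3% and 97.0% in monocytes and 98.0% and 98.7% in sperm. Single CpGs of this run ranged from 30.4% to 63.2% in fibroblast library 1 and from 17.9% to 72.0% in library 2. The CpG at 4113301, for example, was methylated in 63.2% of 19 reads in library 1 and in 17.9% of 39 reads in library 2. On chromosome 16 (chr16:2643004-2643485), 13 CpGs in 482 bp had a mean of 52.2% and 38.1% in fibroblasts, 92.5% and 93.1% in monocytes and 98.8% and 98.0% in sperm. On chromosome 17 (chr17:74463260-74463875), 12 CpGs at 2 loci had a mean of 39.9% and 28.9% in fibroblasts, 96.2% and 97.2% in monocytes and 96.4% and 88.1% in sperm. Fibroblast library 2 was the lower in all 3 runs, by 10.9 to 16.6 points, and both fibroblast libraries were below the other 4 in each.

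The fibroblast-partial CpGs were more frequent where few other CpGs had been read nearby. Of the 15743 reference CpGs with no other eligible CpG within 100 bp, 22.8% were fibroblast-partial. The share was 19.6% with 1 neighbour, 17.4% with 2, 14.6% with 3 or 4, 11.4% with 5 to 9 and 7.0% with 10 to 19 neighbours (2004 of 28613 CpGs). Only 84 reference CpGs had 20 or more neighbours, and 7 of them were fibroblast-partial. The share with no neighbour was 3.26 times that with 10 to 19. Over all reference CpGs, mean fibroblast methylation was 71.6% with no neighbour and 85.5% with 10 to 19, averaged over both libraries, whereas monocytes were at 94.0% and 95.8% and sperm was 97.6% and 97.7%. Both libraries of each cell type showed the same order, as drawn in the plot of methylation by local CpG number. For CpGs partial in monocytes alone the shares at the same ends were 2.25% and 1.72%. The contrast was also seen at fixed coverage: with 20 to 39 summed fibroblast reads the share went from 21.7% to 4.69%, and with 60 to 99 reads from 22.9% to 9.68%. Coverage itself moved with the share, from 12.0% at 20 to 29 summed fibroblast reads to 21.3% at 100 or more. These counts cover CpGs read by RRBS and not all CpGs of the genome.

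**Figure D3:**
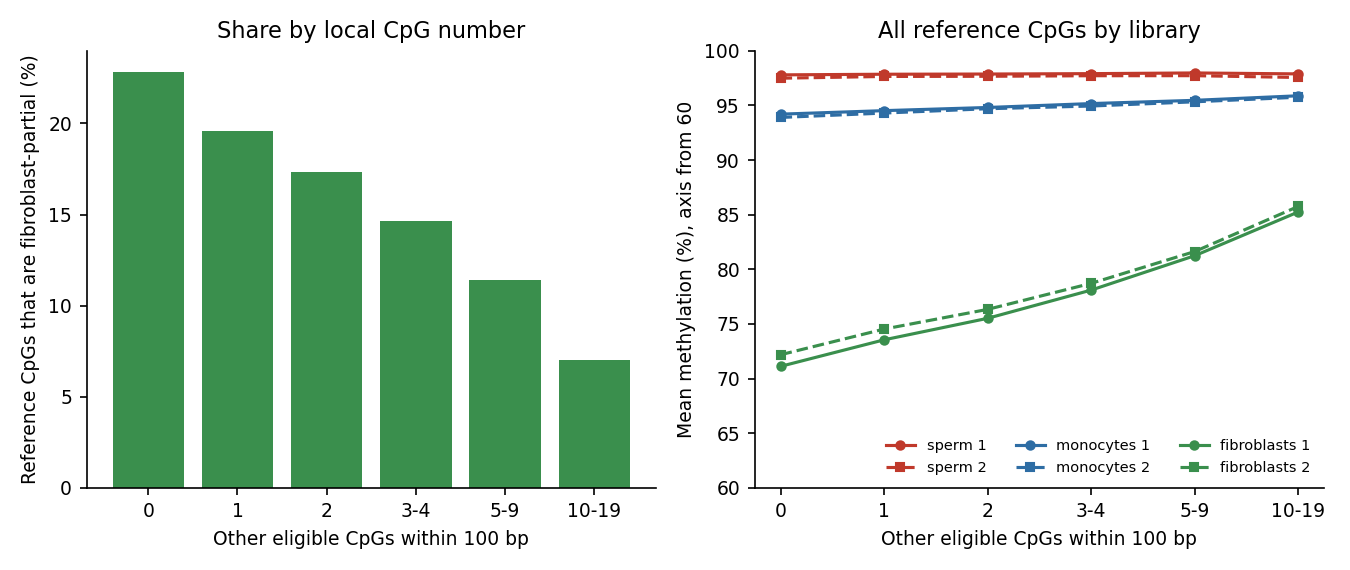
Left, percentage of reference CpGs that are fibroblast-partial, by the number of other eligible CpGs within 100 bp. Right, mean methylation (%) of all reference CpGs in each library over the same classes, on an axis that starts at 60%. The share falls from 22.8% to 7.0% and fibroblast methylation, averaged over both libraries, goes from 71.6% to 85.5%. The sperm libraries lie between 97.5% and 98.0%, where the choice of reference CpGs limits sperm and monocytes but not fibroblasts.

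On a chromosomal scale the CpGs were widely spread. The share of reference CpGs that were fibroblast-partial was highest on chromosomes 4 (17.8%) and 20 (16.6%) and lowest on chromosomes 9 (11.2%) and 25 (11.6%). It was 13.8% in the first 5 Mb of the chromosomes, 13.3% in the last 5 Mb and 14.5% between them. By distance from the nearest CpG below 20% in both sperm and monocytes, as at an unmethylated CpG island, the share was 14.4% up to 1 kb, 11.4% at 1 to 3 kb, 11.9% at 3 to 10 kb, 14.0% at 10 to 100 kb and 19% beyond 100 kb. The highest share thus lay farthest from such CpGs, and the lowest just outside their closest surroundings. Reference CpGs beyond 100 kb also had fewer eligible neighbours within 100 bp, 3.71 on average against 4.73 to 5.17 in the nearer classes. The share by distance was not tested at a fixed number of neighbours.

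To look for domains, chromosomes were divided into windows of 100 kb, and windows with at least 5 reference CpGs at 3 or more loci were kept. Among these 6699 windows the median share of fibroblast-partial CpGs was 12.7%. Rich windows, with a share of at least 50%, numbered 312 (4.66%) and held 2202 fibroblast-partial CpGs (4.44%). Poor windows, with at most 10%, numbered 2823 (42.1%), and 1097 windows had no fibroblast-partial CpG. The number of windows fell from 2744 with a share below 10% to 190 at 50% to 60% and 18 at 70% to 80%, with 20 at 80% to 90%, so that rich windows formed the tail of the distribution. Rich windows had fewer reference CpGs, a median of 10 against 25 in poor windows, and fewer eligible CpGs of any kind, 38.0 against 115 on average. Shares in rich windows therefore rest on fewer CpGs and are less precise.

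Measurements that had not chosen the windows gave the same order with a smaller contrast. When windows were chosen in fibroblast library 1, the 333 rich windows had 58% of reference CpGs between 20% and 60% in that library. In library 2 it was 42.6%, against 14.3% over all reference CpGs. When library 2 chose, the 285 rich windows had 57.4% in that library and 45.8% in library 1, against 15.1%. CpGs covered by only 5 to 9 reads in at least 1 library had been left out of the choice. Of those above 80% in sperm and monocytes and over 300 bp from any reference CpG, 1838 lay in rich windows, where their mean was 62.9% and 65.3% in the fibroblast libraries. It was 83.6% and 83.8% at 40381 such CpGs in poor windows and 74.3% and 74.8% at 48479 in the windows between. Monocytes were at 94.3% and 94.0% in rich and 95.8% and 95.7% in poor windows, and sperm at 97.5% and 97.2% against 98.0% and 97.8%. All 6 libraries thus had their lowest mean at unused CpGs of rich windows, and the fibroblast libraries differed most between the classes. The limit of 80% bounds sperm and monocytes at these CpGs but not fibroblasts. Reference CpGs of rich windows also had fewer eligible CpGs within 100 bp. Their mean number was 2.67, against 4.67 in the windows between and 5.12 in poor windows. The contrast between windows was not tested at a fixed number of neighbours. The share of these CpGs between 20% and 60% in fibroblasts was 32.3% in rich, 19.5% in the intermediate and 9.78% in poor windows.

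**Figure D4:**
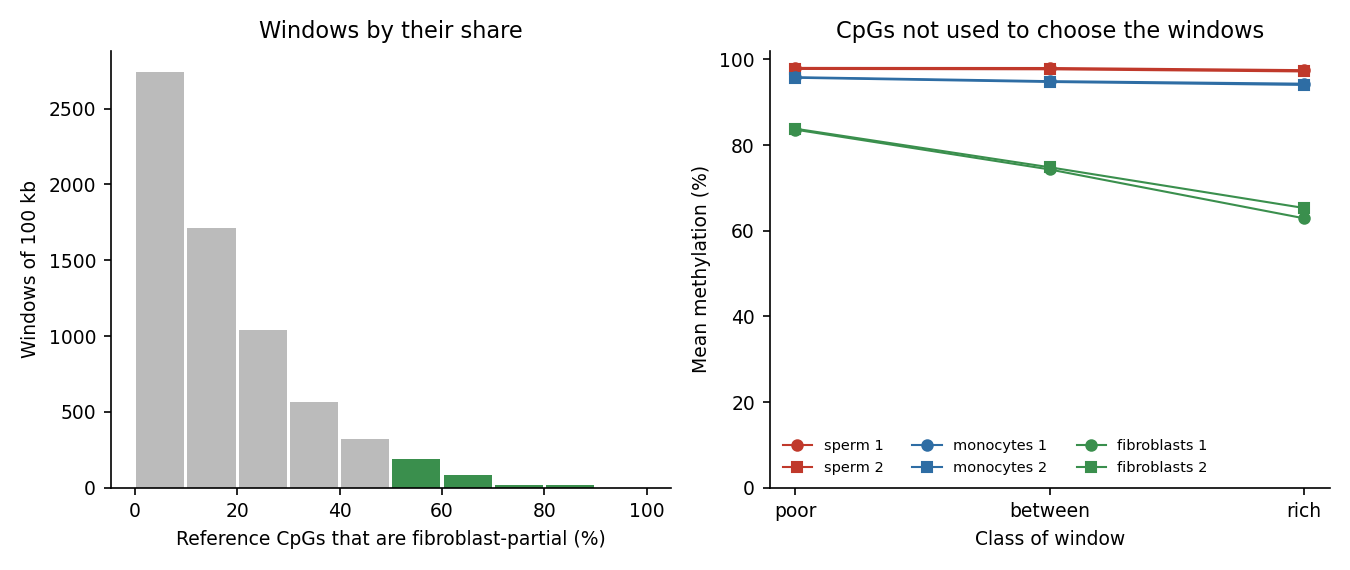
Left, number of 100 kb windows by the percentage of their reference CpGs that are fibroblast-partial, with rich windows in green. Right, mean methylation (%) in each library of CpGs above 80% in sperm and monocytes that were not used to choose the windows, where fibroblasts go from 83.6% and 83.8% in poor to 62.9% and 65.3% in rich windows.

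Rich windows seldom followed each other. Of 184 rich windows whose next window could be classed, 8.15% were followed by another rich window, against 3.83% over all such windows and 1.45% after poor ones. The median share in the window after a rich one was 26.0%, against 12.8% over all. Joining at least 2 rich windows, with up to 2 windows of too few reference CpGs bridged between them, gave 21 candidate domains on 18 chromosomes. They covered 5.3 Mb in total, were 200 to 500 kb long with a median of 200 kb, and held 317 fibroblast-partial CpGs, 0.640% of all. No candidate domain was longer than 500 kb. Without monocyte replicate 2 the number of candidate domains was 42, and when each library had to meet the limits on its own it was 1.

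Inside the candidate domains 57.8% of 548 reference CpGs were fibroblast-partial, and their mean was 48.9% and 50.7% in fibroblasts, 92.4% and 92.5% in monocytes and 97.5% and 97.4% in sperm. Within 500 kb outside them, 19.1% of 4633 reference CpGs were fibroblast-partial. The mean there was 74.2% and 75.3% in fibroblasts, 94.6% and 94.7% in monocytes and 97.9% and 97.6% in sperm, so that monocytes were also lower inside. By domain, the mean of the fibroblast libraries ranged from 38.9% to 59.9%. No fibroblast library exceeded 61.8% in any domain, no monocyte library was under 86.1% and no sperm library was under 91.6%. The boundaries and these levels follow from the choice and are given as a description. CpGs above 80% in fibroblasts occurred in all but 3 of the 21, with at most 12 in a domain. Over all reference CpGs 63.1% were above 80%, so that finding some in most domains is no trait of the domains. Their number there is also limited by the choice of windows.

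**Figure D5:**
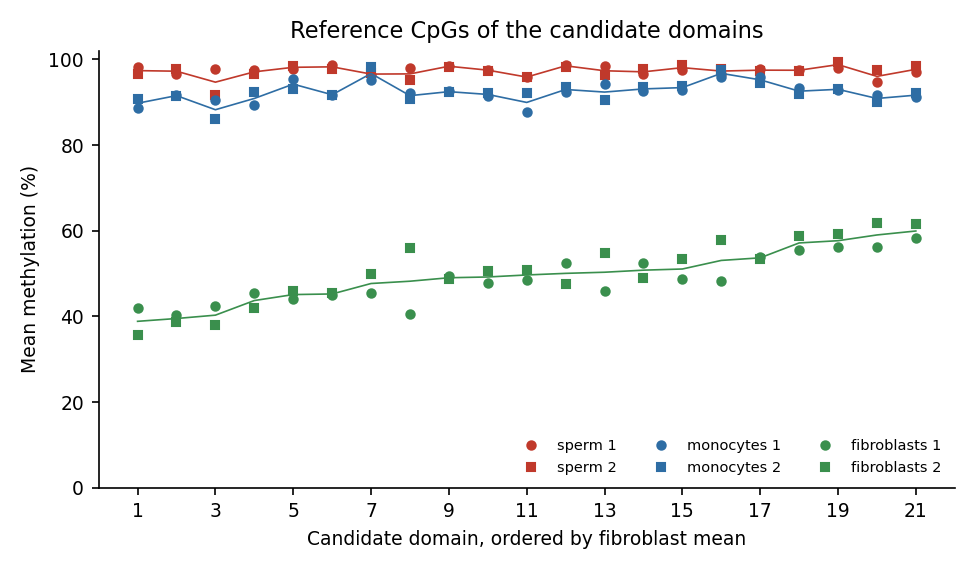
Mean methylation (%) of the reference CpGs of each of the 21 candidate domains in each library (points), with the mean of the 2 libraries of a cell type (line), ordered by the fibroblast mean. Fibroblast means lie between 38.9% and 59.9%, and no monocyte library is under 86.1%.

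The candidate domain with the most fibroblast-partial CpGs was on chromosome 4 (chr4:116500001-116800000). It held 30 of them among 57 reference CpGs at 16 loci, and 145 eligible CpGs of any kind. The mean of its reference CpGs was 47.7% and 50.7% in fibroblasts, 91.5% and 92.1% in monocytes and 97.6% and 97.3% in sperm. Of its 16 loci, 14 held a fibroblast-partial CpG and 5 consisted of them, while 12 CpGs were above 80% in fibroblasts.

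A domain on chromosome 10 (chr10:100900001-101200000) had the highest share of fibroblast-partial CpGs among those named. There 29 of 37 reference CpGs (78.4%) were fibroblast-partial, and 14 of 15 loci held at least 1. The domain held 223 eligible CpGs, most of them not above 80% in both sperm and monocytes. The mean of its reference CpGs was 45.4% and 42.0% in fibroblasts, 89.3% and 92.4% in monocytes and 97.6% and 96.6% in sperm. None of its reference CpGs was above 80% in fibroblasts, the highest being 79.0%. Its fibroblast libraries differed by 3.44 points and both lay at least 43.9 points below the other 4 libraries.

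The next candidate domains by number lay on chromosomes 24, 5 and 8. The first (chr24:1900001-2100000) held 26 fibroblast-partial CpGs among 47 reference CpGs (75 eligible), with 52.4% and 47.7% in fibroblasts. The second (chr5:105600001-105800000) held 18 among 32 (177 eligible), with 49.4% and 48.6%. The third (chr8:89900001-90200000) held 17 among 33 (164 eligible), with 48.4% and 57.8% in fibroblasts and 95.9% and 97.5% in monocytes. The longest candidate domain, of 500 kb on chromosome 3 (chr3:111700001-112200000), rested on 21 reference CpGs, 12 of them fibroblast-partial, and its fibroblast libraries were at 40.5% and 55.9%, the widest difference among the 21. One of 400 kb on chromosome 16 (chr16:71400001-71800000) held 15 fibroblast-partial CpGs among 25 and was at 40.4% and 38.6%. The domain on chromosome 4 was 1 of 6 of 300 kb, the next length. Loci spread widely in each of the 7 domains named here. In fibroblast library 1 the range was widest on chromosome 5, from 0% to 100%, and narrowest on chromosome 4, from 21.5% to 77.2%. Both ends on chromosome 5 were loci of 1 reference CpG, where a percentage is coarse. In library 2 the narrowest range was on chromosome 10, from 25.7% to 67.9%. Which genes lie in these regions was not analysed here, since no annotation of UMD3.1 was used.

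Unmethylated CpGs were also compared between rich and poor windows, since none of them could be fibroblast-partial by the rule. Their limit was set on sperm and monocytes and caps these 4 libraries but not fibroblasts, so that the comparison of fibroblasts with the others is not independent of the choice. CpGs below 20% in sperm and monocytes had a mean of 5.98% and 5.86% in the fibroblast libraries where they lay in rich windows (4456 CpGs) and 3.36% and 3.57% in poor windows (107249 CpGs). In monocytes the values were 2.64% and 2.56% in rich and 1.18% and 1.05% in poor windows, and in sperm 0.761% and 0.634% against 0.814% and 0.834%. The difference between rich and poor windows was thus 2.46 ± 0.230 points in fibroblasts, 1.48 ± 0.0314 in monocytes and -0.126 ± 0.103 in sperm (mean ± SD, n = 2). Low CpGs were a little higher in rich windows in every somatic library and in neither sperm library, but this order was not kept under other settings. With a coverage minimum of 20 both sperm libraries were also higher there, by 0.282 and 0.189 points, and with rich windows from 70% the differences in fibroblasts were -0.00143 and -0.353 points. Fibroblasts exceeded the 4 other libraries by 1.78 points, with p = 0.133 in an exact two-sided permutation test over libraries, for which 0.0667 is the smallest possible p. The difference was 1.16 points without sperm replicate 1 and 1.10 points without sperm replicate 2, and it changed sign, to -0.470 points, when a rich window needed a share of 70%. Fibroblasts did not stay above monocytes: with windows of 50 kb the differences were 0.956 and 1.10 points in fibroblasts and 1.58 and 1.47 in monocytes, and with at least 10 reference CpGs at 5 loci they were 1.43 and 0.959 points against 1.82 and 1.57.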

How the data were processed

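The cell type in the labels gave the groups of the 6 RRBS libraries (sperm, monocytes and fibroblasts, 2 each). According to the submitters' processing notes, the authors used FastQC, Trim Galore 0.3.7, Bismark 0.14.3, Bowtie and methylKit with the UMD3.1 genome. In the deposited tables each CpG, with both strands merged, has its coverage in counts of reads, not normalized, and the percent of methylated and unmethylated reads to 1 decimal. The methylated reads were recovered as the nearest whole number to coverage times percent. Reads carry no molecular identifiers, so that PCR copies may count more than once.

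The CpGs, lists and limits were chosen with earlier results of these data known. Percentages of libraries were averaged over CpGs, and no test between cell types was run on the chosen CpGs. Fisher's exact test between the fibroblast libraries was adjusted over 950004 CpGs, with a threshold of 0.05. It was tested on simulated data with 200 CpGs that differed by 50 points, of which 22.0% were recovered with 0 false calls. The simulated reads varied by counting alone, with no difference at the other CpGs. These rates therefore do not carry over to the real libraries, which differed by more than counting. Regions named were the 5 candidate domains with the most fibroblast-partial CpGs, the longest 3 (equal lengths ordered by that number), the 3 runs with the most CpGs, and the chromosomes with the highest and lowest 2 shares. The alternatives were other coverage limits, bands, window sizes and definitions, a likelihood-ratio test, and leaving out each library. Gene groups, gene names and sequences were not analysed here. The tools were Python 3.11.15, pandas 2.3.3, matplotlib 3.10.9 and numpy 2.4.6. Fisher's exact test was computed with numba 0.67.0, and scipy 1.17.1 served to check it and for the likelihood-ratio test.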

Additional observations from a re-analysis of the deposited data

Results flagged for a closer look

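At CpGs below 20% in sperm and monocytes, the difference between rich and poor windows was positive in both fibroblast and both monocyte libraries and negative in both sperm libraries. It was 2.58 points higher in fibroblasts than in sperm and 1.61 points higher in monocytes than in sperm. These differences between cell types were not tested. The signs were not kept under other settings: both sperm values were positive, at 0.282 and 0.189 points, with a coverage minimum of 20, sperm library 2 was at 0.0202 points with windows of 50 kb, and both fibroblast values were negative, at -0.00143 and -0.353 points, with rich windows from 70%.

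The X chromosome was left out of all comparisons. Of its 2475 reference CpGs, 643 (26.0%) met the fibroblast-partial rule, against 14.0% on the autosomes. The donors of fibroblasts and monocytes were all female and those of sperm male. The cause was not tested.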

How the results depend on the processing

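The number of fibroblast-partial CpGs was 91759 with a coverage minimum of 5, 6388 with a minimum of 20, 23127 when each library had to meet the limits, 118206 with a band of 20% to 80%, 32621 with sperm and monocytes above 90%, and 49940 to 58188 without 1 library. Their share of reference CpGs (14.0%) was 15.0% with a coverage minimum of 5, 7.04% with each library in the limits, 33.3% with the band of 20% to 80%, 11.9% with 30% to 60%, 11.1% above 90%, and 13.8% to 15.1% without 1 library. The share in rich windows (4.44%) was 3.71% and 6.18% with coverage minima of 5 and 20, 4.53% with the mean of the replicates, 0.800% with each library in the limits, 29.9% and 2.26% with bands of 20% to 80% and 30% to 60%, 3.00% above 90%, 5.01% and 3.41% with windows of 50 and 200 kb, 21.5% and 0.531% with rich windows from 30% and 70%, 2.29% with at least 10 reference CpGs at 5 loci, 8.55% with each locus counted once, and 4.03% to 4.92% without 1 library. The 21 candidate domains became 60 and 5 with coverage minima of 5 and 20, 1 with each library in the limits, 377 and 4 with the 2 other bands, 10 above 90%, 212 and 1 with rich windows from 30% and 70%, 6 with at least 10 reference CpGs, 32 with each locus counted once, and 21 to 42 without 1 library, the 42 without monocyte replicate 2. The share in runs (32.9%) was 28.2% with a coverage minimum of 20 and 10.3% for runs of at least 5. The 1777 calls between fibroblast libraries were 3022 by the likelihood-ratio test (6.10%, against 2.42% of all eligible CpGs) and 348 with a coverage minimum of 20 (5.45%, against 1.84%). The ratio of 3.26 between isolated and crowded CpGs, whose alternatives were chosen after seeing the data, was 5.66 with a coverage minimum of 20 and 3.13 to 3.32 under the 4 others. The cause of these changes was not tested, and the number of domains depends on the definitions above.

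At low CpGs the 1.78 points of fibroblasts above the other libraries became -0.470 with rich windows from 70%, with exact permutation p = 0.467, and was 0.267 to 0.973 under the other window and coverage settings (exact permutation p between 0.133 and 0.733) and 1.10 to 1.71 without 1 library. With CpGs that had at least 5 eligible neighbours in place of low CpGs it was 0.990, but there each library was lower in rich windows, fibroblasts by more than monocytes, and the windows hold different mixtures of CpGs, so that this value is no support. With the replicate block, labels permuted within replicate numbers, the value was 1.78 with exact p = 0.222. The numbers name different animals and pair no samples. With 2 libraries per cell type and a median of 17 to 29 reads at the fibroblast-partial CpGs, single CpGs are imprecise.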
